A study of Mus musculus with 12 samples.

Results

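The cells described here were 116 cells that met a rule for ductal cells among 5982 single cells sequenced from dissociated mouse islets. They were chosen by their measured values from the 3184 cells of both YFP- libraries, with 62 of 1495 cells in experiment 1 (4.15%, exact Clopper-Pearson 95% interval 3.19 to 5.29%) and 54 of 1689 in experiment 2 (3.20%, 2.41 to 4.15%). A cell was a member when it had a UMI (a unique molecular identifier, which marks 1 captured transcript) of at least 3 of 6 duct markers, namely Krt19, Krt7, Sox9, Spp1, Clu and Cldn3, and no UMI of Ptprc, Pecam1 or Col3a1, the markers of immune, endothelial and stromal cells. It also had to lie at or under a limit for each islet hormone on the scale L = ln(1 + 10000 × UMIs of the gene / UMIs of the cell). These limits were 3.32 (Sst), 3.23 (Ppy), 6.36 (Ins2) and 5.12 (Gcg). The 1300 and 1498 cells of the YFP+ libraries all lay above at least 1 of the limits, so the rule could choose none of them.

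The pancreatic duct is a tree of simple epithelium that carries the digestive enzymes made by acinar cells to the intestine and adds a bicarbonate-rich fluid to them. Duct cells are polarised, joined by tight junctions and desmosomes, filled with keratins and carry a primary cilium, and the transcription factor Sox9 marks them in the adult organ. Islets isolated by digestion of the pancreas often carry fragments of the ducts that lie beside them.

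The islets came from Ppy-rtTA; R26-YFP mice of mixed background, aged 2 months and given doxycycline at 1 mg/ml in their water for 2 weeks from the age of 1 month, so that cells in which the Ppy promoter was active were marked by YFP through TetO-Cre. The coding sequence of rtTA stands in place of that of Ppy on 1 allele. Each of the 2 experiments pooled the islets of several mice, males and females were used, only the ventral pancreas was taken, and the YFP+ and YFP- fractions were sorted and loaded separately, so every library was 1 sample. No treatment was compared within the YFP- fraction, and the comparisons below set duct cells against other cells of the same library. The classes compared held 682 alpha, 530 beta, 291 delta, 202 endothelial, 187 stromal and 208 myeloid cells in both YFP- libraries.

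The YFP- libraries held 18330975 and 10683494 UMIs, with medians of 8338 and 4237 UMIs per cell. The members held 521700 and 259246 UMIs, with medians of 6442 (range 1457 to 41307) and 4291 (1412 to 18217) per cell. All 6 markers were seen in 31 of 62 and 14 of 54 members, a number that depends on depth: with every member thinned to 1000 UMIs it was 1 in each experiment. Just inside the marker limit lay 4 and 8 members with exactly 3 markers, and just outside it 8 and 17 cells with 2. The hormone limits lay in gaps. The highest L of Ins2 in a member was 5.47 in experiment 1 and 4.31 in experiment 2, and the lowest among the cells kept out by Ins2 alone was 7.57 and 8.31. For Gcg the same values were 4.05 and 4.40 inside and 6.31 and 6.67 outside, and for Sst 2.52 and 3.00 inside and 7.05 and 6.50 outside. No member had an L of Ppy above 2.35, and the lowest outside was 5.06. The member nearest to a limit was thus 1 of experiment 2, by Sst, and with each limit lowered by 1 there were 57 and 41 members. The libraries shared between 1 and 6 cell barcodes per pair, with 6 between both YFP- libraries, of which 2 were barcodes of members.

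The members were of unlike kinds, and 10 of them went against the label while 3 more were intermediate. In the other 103, Spp1 (osteopontin) and Clu (clusterin), secreted proteins and both markers of the rule, had UMIs in every cell, and Spp1 took a median of 1.35% and 1.20% of the UMIs of a cell. In these 13, the acinar genes, the mucosal genes (mucins, trefoil factors and goblet cell genes) and the alpha-defensin genes together took between 6.56% and 79.0% of the UMIs of a cell, against at most 0.814% in the 103. Spp1 had at most 1 UMI in each of these 13 cells. They are called secretory cells here, and they were set apart after their values were seen.

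The secretory cells were of several kinds, and the kinds differed between the experiments. In experiment 2, 6 cells gave 33.2 to 57.7% of their UMIs to mucosal genes, with 211 to 1967 UMIs per cell of Tff3, a trefoil factor of goblet cells, and 50 to 133 of Muc2, the gel-forming intestinal mucin. In 1 of them alpha-defensins took a further 12.9%. A further cell of experiment 2 gave 78.3% of its 18217 UMIs to alpha-defensins, the antimicrobial peptides of Paneth cells, with 6797 UMIs of Defa24, 3861 of Defa30 and 539 of Lyz1. In experiment 1, 3 cells gave 50.1 to 64.6% of their UMIs to acinar genes other than Zg16, with 1524 to 6109 UMIs of Ctrb1 (chymotrypsinogen) and 1258 to 3823 of Clps (colipase). The last 3 cells, 2 of experiment 1 and 1 of experiment 2, were intermediate. They gave 6.55, 10.7 and 6.70% of their UMIs to acinar genes and lacked Spp1 but for 1 UMI. They kept 85, 118 and 27 UMIs of Clu, and held 21, 217 and 68 UMIs of Nupr1, a stress-response gene, in 11517, 19902 and 10921 UMIs in all. These were 0.182, 1.09 and 0.623% of their UMIs, against at most 0.448% in the 103 cells, so the first lay within their range. The secretory cells were 5 and 8 cells and held 19.3% and 24.1% of the UMIs of all members. Leaving them out therefore raised a gene that they lacked by 1.24 times in experiment 1 and 1.32 times in experiment 2. The label ductal below stands for the rule, and levels are over all 116 members. The value over the 103 cells is given for some of the genes that it changed further.

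**Figure D1:**
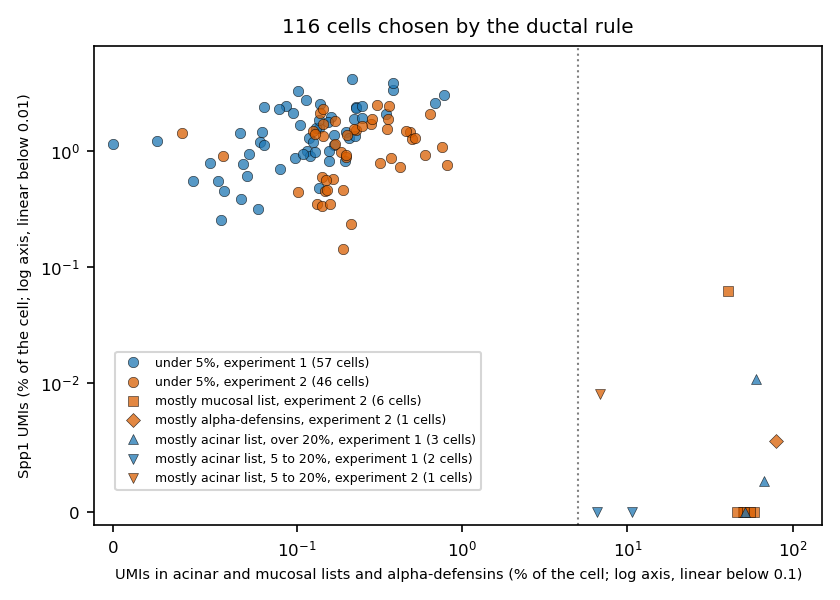
Each point is 1 of the 116 members, with the share of its UMIs in acinar, mucosal and alpha-defensin genes on the x axis and the share in Spp1 on the y axis, both in percent on log axes that are linear near 0; colour marks the experiment, shape the leading genes and the dotted line 5%. The 103 cells form a group at the upper left, and the 13 secretory cells lie at the right with at most 1 UMI of Spp1.

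The 6 markers of the rule describe the members and test nothing. Levels are counts per 1000000 (CPM) of the UMIs summed over the members of an experiment, and counting intervals are exact 95% Poisson intervals that cover counting error only. As the kit reads the 3′ end of transcripts, levels are compared between cell classes, and an order of genes by level is one of UMIs captured. Spp1 stood at 11926 and 8694 CPM in experiments 1 and 2 (11632 to 12226 and 8339 to 9061), and Clu at 9762 and 6299 CPM. Sox9, the transcription factor that keeps duct identity, stood at 535 and 586 CPM and had a UMI in 53 and 43 members. The keratin Krt19 was at 381 and 505 CPM, the keratin Krt7 at 184 and 123 CPM and Cldn3, a claudin of tight junctions, at 1121 and 729 CPM. In alpha, beta and delta cells, which had 1 hormone above its limit, the mean of the 3 classes was 6.41 and 16.3 CPM for Sox9 and 38.8 and 91.4 CPM for Spp1. Krt7 was the least separate of the 6, with 60.9 and 46.5 CPM in endocrine cells, and it was the 1 marker that missed 2-fold with hormone genes left out of the totals.

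**Figure D2:**
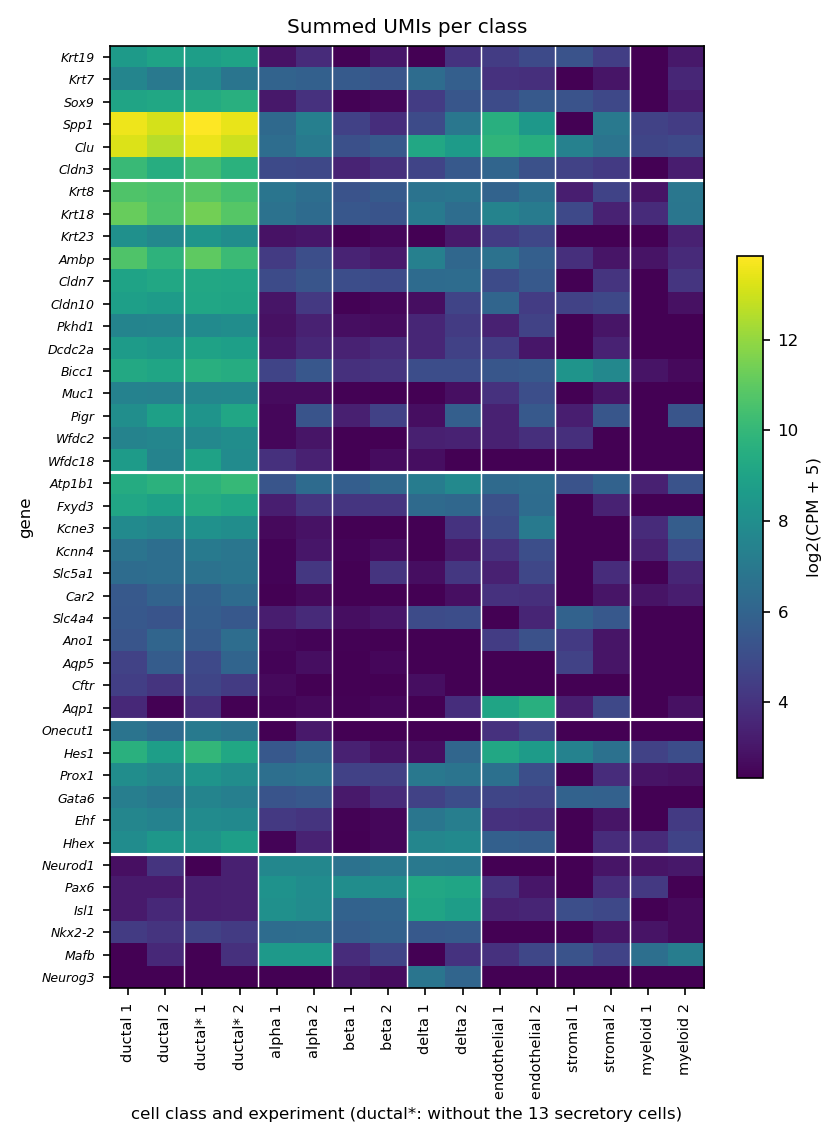
The colour gives log2(CPM + 5) of each gene (rows) in the summed UMIs of each cell class and experiment (columns), with white lines between rule markers, other ductal genes, ion and fluid transport genes, duct factors and endocrine factors. The ductal columns are bright for the first 2 blocks and dark for the endocrine factors drawn in both experiments (Hhex is drawn with the duct factors), and leaving out the 13 secretory cells changed this little.

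Against the mean of alpha, beta and delta cells, 1904 of 8886 genes with at least 10 CPM in either group were at least 2-fold higher in ductal cells in both experiments, with 5 CPM added to each side, and 598 were at least 2-fold lower. These are 21.4% and 6.73% of the genes compared, and counts for gene lists against endocrine cells below stand beside these shares. The rule chose the cells by genes of this same contrast and cells of 1 library are not replicates, so no test was made and nothing is read from these shares. The count of higher genes depended on the scale. Hormone transcripts made up 74.8% and 70.5% of the UMIs of beta cells and 1.22% and 0.947% of those of ductal cells, and the median gene was 0.59 higher on the log2 scale in ductal cells. With the hormone genes left out of the totals the median was -0.19, and of 9913 genes 975 were higher and 1414 lower. List counts against endocrine cells that are given below with hormone genes left out stand beside these numbers, not beside the shares above. With TMM factors the median was -0.14, with 868 higher and 1126 lower.

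Of 26 ductal genes that the rule did not use, 25 passed the filter on low values, and 23 of these were at least 2-fold higher in ductal than in endocrine cells in both experiments and 0 lower, with a median log2 fold of 3.07 beside 0.59 over all genes. With the hormone genes left out of the totals 21 of 25 were higher. Without the secretory cells 22 of 24 were higher and 1 lower, beside 27.2% and 6.67% of all genes. Sctr was below the filter. Ambp, the precursor of alpha-1-microglobulin and bikunin, was at 1650.4 and 872 CPM against 58.9 and 33.7 in endocrine cells. Muc1, a membrane mucin of duct surfaces, was at 167 and 162 CPM against 0.561 and 1.10. The exceptions were Onecut2, with 3 and 14 UMIs, and Tspan8, whose 42 UMIs in experiment 2 fell to 1 without the secretory cells. Mmp7, at 11.5 and 50.1 CPM, had no UMI left in experiment 2 without them.

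Simple-epithelium keratins were abundant. The pair Krt8 and Krt18, which form 1 filament, stood at 1625 and 1501 and at 2302 and 1578 CPM in the 2 experiments, and Krt23 at 272 and 201 CPM. Of the 6 listed keratins, which include Krt7 and Krt19 of the rule, 5 were higher and 0 lower than in endocrine cells (4 higher and 0 lower of 6 with hormone genes left out of the totals). Krt20, the remaining one, was at 1.92 and 201 CPM, and 49 of its 52 UMIs in experiment 2 came from secretory cells. Of 26 junction genes, Cldn3 of the rule among them, 24 passed the filter, and 21 of these were higher and 0 lower (15 higher and 0 lower of 24 with hormone genes left out of the totals). Among the claudins, Cldn7 was at 504 and 598 CPM, Cldn10 at 454 and 401 and Cldn6 at 117 and 84.9, whereas Cldn2 had 2 and 2 UMIs and Cldn1 none in either experiment. Cldn8 was at 76.7 and 84.9 CPM and had at most 2.88 CPM in any of the 6 other classes. Cdh1, the cadherin of epithelial adherens junctions, was at 318 and 351 CPM and the desmosomal cadherin Dsg2 at 337 and 382 CPM.

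**Figure D3:**
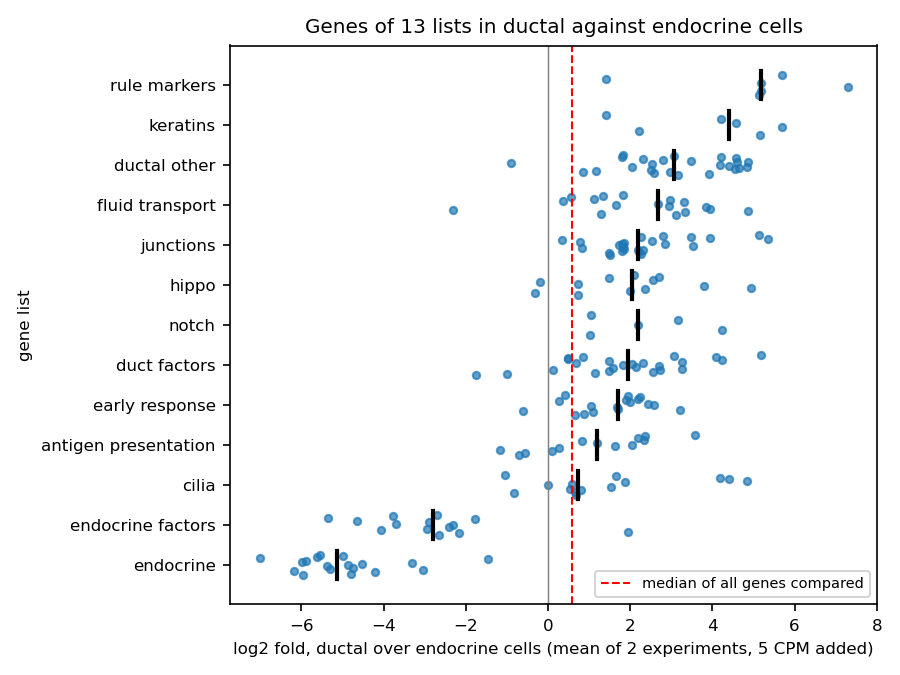
Each point is 1 gene of a list (y axis) that passed the filter, at its log2 fold of ductal over endocrine cells as the mean of 2 experiments with 5 CPM added (x axis); black bars are list medians and the dashed line is the median of all genes compared. Keratins and other ductal genes lie mostly right of the dashed line, and the endocrine lists lie left of 0 but for Hhex.

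The markers of the rule aside, the 20 genes furthest above the highest of the 6 other classes, at 100 CPM or more, were Zg16, Wfdc18, Dcdc2a, 1700011H14Rik, Spink4, Krt8, Wfdc2, Slc28a3, Tstd1, Krt18, Ambp, Rab27b, Plet1, Prr15l, Hpn, Pigr, Pkhd1, Dsg2, Krt23 and Ptgds. Without the secretory cells 18 of these stayed among the 20, and Zg16 and Spink4 gave way to Cldn8 and Sbspon. Zg16, a secretory granule protein of acinar and goblet cells, was at 1894 and 28270.4 CPM over all members and at 14.2 and 137 CPM without them. Spink4, a goblet cell peptide, was at 149.5 and 1663 CPM with them, but the 185 and 188 CPM left without them still lay above every other class, of which delta cells of experiment 2 were highest at 45.1. Slc28a3, a nucleoside transporter, stood at 192 and 204 CPM. Pigr, which carries antibodies across epithelia into secretions, stood at 255 and 471 CPM, and Hpn (hepsin), a membrane serine protease, at 115 and 92.6 CPM. Rab27b, a small GTPase of exocytosis, was at 99.7 and 231 CPM. Wfdc18, a small secreted protein of the whey acidic protein family, reached 395 and 174 CPM in only 21 and 10 members.

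The machinery of bicarbonate and fluid transport was present unevenly. Of 28 listed genes 17 passed the filter, with 13 higher and 1 lower than in endocrine cells (10 higher and 1 lower of 17 with hormone genes left out of the totals). The sodium pump subunit Atp1b1 was at 686 and 852 CPM, and Fxyd3, a regulator of the pump, at 558 and 459 CPM. The potassium channel genes Kcne3 and Kcnn4 were at 226 and 185 and at 104 and 84.9 CPM. Slc5a1, the sodium-glucose cotransporter, was at 78.6 and 84.9 CPM, and Car2, a carbonic anhydrase, at 42.2 and 57.9 CPM against 0 and 0.98 in endocrine cells. Cftr, the chloride and bicarbonate channel of the duct, had only 9 and 3 UMIs, which is 17.3 and 11.6 CPM (7.89 to 32.7 and 2.39 to 33.8), and it had no UMI in endothelial, stromal or myeloid cells. The secretin receptor gene Sctr had 4 and 2 UMIs. Slc4a4, the sodium bicarbonate cotransporter, was at 40.3 and 34.7 CPM, no higher than in stromal cells at 57.2 and 40.3. Aqp5 was at 19.2 and 46.3 CPM, whereas the water channel Aqp1 had 4 and 0 UMIs, against 524 and 767 CPM in endothelial cells. No UMI of Slc26a3, Car12, Car14, Best3 or Kcnma1 was seen. At this depth 3 UMIs, the limit that a count of 0 allows, are 5.75 and 11.6 CPM.

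Genes of the primary cilium split. Of 15 listed genes 14 passed the filter, 6 were higher than in endocrine cells, 0 were lower and 8 were neither (4 higher and 1 lower of 14 with hormone genes left out of the totals). The shares of all genes on the scale of all UMIs were 21.4% higher and 6.73% lower. With hormone genes left out of the totals 975 of 9913 genes were higher and 1414 lower. The list median log2 fold was 0.74, close to 0.59 over all genes. With hormone genes left out of the totals these medians were 0.28 and -0.19. The higher ones included Pkhd1 (fibrocystin, mutated in recessive polycystic kidney disease) at 180.2 and 185 CPM, Bicc1, an RNA-binding protein, at 619 and 544 CPM, and Dcdc2a, a doublecortin-domain protein, at 401 and 343 CPM, and these 3 are also among the listed ductal genes. Pkd2 was at 93.9 and 88.7 CPM, below the 167 and 164 CPM of stromal cells, and the general cilium genes Ift88 and Bbs4 were at 19.2 and 11.6 and at 19.2 and 11.6 CPM.

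Transcription factors separated the members from endocrine cells in both directions. Of 28 factors listed for duct or epithelial cells, Sox9 of the rule among them, 24 passed the filter, with 15 higher and 1 lower than in endocrine cells (13 higher and 2 lower of 24 with hormone genes left out of the totals). Onecut1 was at 104 and 77.1 CPM against 0 and 1.18 in endocrine cells. Prox1 was at 247 and 189 CPM, Gata6 at 146 and 116, the epithelial ETS factor Ehf at 188 and 166 and Sox4 at 228 and 293. Nr5a2, a nuclear receptor of the exocrine pancreas, was at 57.5 and 50.1 CPM. Pdx1 and Nkx6-1, which mark the early pancreatic epithelium and adult beta cells, were low at 19.2 and 11.6 and at 5.75 and 19.3 CPM, and Nkx6-1 was the 1 lower gene of the list. Of 15 endocrine factors 14 passed, 13 were lower and 1 was higher, also with hormone genes left out of the totals. Neurog3, which starts the endocrine program in the embryo, had no UMI in any member, and neither had Fev, Rfx6 or Myt1. Neurod1 had 1 and 3 UMIs, Pax6 2 and 1 and Isl1 2 and 2. The 1 higher factor was Hhex, which in islets belongs to delta cells. It was at 239.6 and 336 CPM in ductal cells with a UMI in 43 and 37 members, and at 192 and 220.0 CPM in delta cells. No secretory cell had a UMI of Hhex.

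Notch signaling keeps duct progenitors from differentiating, and YAP with TEAD factors drives genes of spread or stretched epithelia. Of 16 Notch pathway genes only 5 passed the filter against endocrine cells, of which 3 were higher and 0 lower (3 higher and 0 lower of 7 with hormone genes left out of the totals). The target Hes1 was at 801 and 436 CPM against 16.0 and 42.4, the receptor Notch2 at 61.3 and 147 CPM and the ligand Jag1 at 30.7 and 19.3 CPM. Against endothelial cells, 11 of 15 were lower and 1 was higher, Notch2, beside 14.9% and 9.79% of all genes, while Hes1 was at 593 and 401 CPM there. Of 16 Hippo pathway genes 12 passed, with 8 higher and 0 lower than in endocrine cells (7 higher and 1 lower of 12 with hormone genes left out of the totals). Against endothelial cells 1 of 15 were higher and 3 lower, and against stromal cells 3 of 14 were higher and 2 lower, beside 11.6% and 13.2% of all genes against stromal cells. The Hippo target Ankrd1 was at 167 and 150.4 CPM and was found in 25 and 15 members, against at most 25.5 CPM in the other classes, whereas the target Cyr61 was at 113 and 81.0 CPM and higher in endothelial cells at 153 and 280.2.

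The promoter of Ankrd1 is shown because this target set the members apart from the other classes (RefSeq, build GRCm38.p6, chr19:36119845-36120094, minus strand, the 250 bases before the start of the gene, written 5′ to 3′ with each match to the TEAD-type motif GGAATG in capitals).
Ankrd1 promoter: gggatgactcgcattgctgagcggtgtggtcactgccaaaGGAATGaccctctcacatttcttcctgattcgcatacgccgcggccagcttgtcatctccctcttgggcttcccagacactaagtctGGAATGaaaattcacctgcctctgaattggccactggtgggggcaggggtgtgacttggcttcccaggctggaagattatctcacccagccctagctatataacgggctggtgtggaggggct
It held 2 matches, which start 210 and 123 bases before the start. One or more matches on either strand were found in 12.6% of all 32851 windows and 2 or more in 1.02%.

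Of 16 antigen presentation genes 13 passed the filter against endocrine cells. Of these 6 were higher and 0 lower, beside 21.4% and 6.73% of all genes (5 higher and 0 lower of 13 with hormone genes left out of the totals). Against endothelial cells 0 of 15 were higher and 5 lower, beside 9.79% and 14.9% of all genes. The class I gene H2-D1 was at 1229 and 1119 CPM, against 3952 and 2639.7 in endothelial cells. The class II chaperone gene Cd74 was at 92.0 and 289 CPM, against 25341 and 9733 in myeloid cells of the same libraries. Of 24 cytokine, complement and immune receptor genes 8 passed, with 5 higher and 0 lower than in endocrine cells (5 higher and 0 lower of 9 with hormone genes left out of the totals). The shares of all genes on the scale of all UMIs were 21.4% and 6.73%, and with hormone genes left out 975 and 1414 of 9913 genes. Against endothelial cells 2 of 13 were higher and 7 lower, beside 9.79% and 14.9% of all genes. Against stromal cells 1 of 16 were higher and 9 lower, beside 11.6% and 13.2% of all genes. Cd14, a receptor for bacterial lipopolysaccharide best known from monocytes, was at 102 and 112 CPM in ductal cells and at 21.9 and 43.3 CPM in myeloid cells, and had a UMI in 29 and 16 members although cells with Ptprc were kept out. Cxcl16 was at 61.3 and 100.3 CPM, and Tnf, Il6, Ccl2 and Cxcl2 had no UMI. The iron-binding defence protein Lcn2 was at 182 and 158 CPM.

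Of 19 early response genes, which also answer to tissue dissociation, 17 passed the filter. Of these 10 were higher and 0 lower than in endocrine cells, beside 21.4% and 6.73% of all genes. With hormone genes left out of the totals 9 of 17 were higher and 1 lower, beside 975 and 1414 of 9913 genes. Against stromal cells 1 of 18 was higher and 2 were lower, beside 11.6% and 13.2% of all genes. Junb was at 429 and 336 CPM and Fos at 247 and 154 CPM. Among 15 cell cycle genes Ccnd1 (cyclin D1) was at 807 and 455 CPM, with a UMI in 51 and 32 members, against 87.2 and 106 in endocrine cells. The mitotic genes were nearly absent. Mki67 had 2 and 1 UMIs, and the 8 UMIs of Top2a in experiment 1 came from 1 cell. The list as a whole had 3 of 4 genes higher and 0 lower (2 higher and 0 lower of 6 with hormone genes left out of the totals, where its median log2 fold was -0.014). Against endothelial cells 0 of 7 were higher and 1 lower, beside 9.79% and 14.9% of all genes. Against stromal cells 1 of 4 were higher and 0 lower, beside 11.6% and 13.2% of all genes. Without the secretory cells 0 of 8 were higher and 1 lower against endothelial cells, beside 11.8% and 13.5% of all genes. Against stromal cells 4 of 5 were then higher and 0 lower, beside 13.7% and 12% of all genes. The summed level of the list was 910.5 and 559 CPM in ductal and 1218 and 1657 CPM in myeloid cells.

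Mucosal and regenerating-protein genes rested on the secretory cells. Of 18 mucosal genes 10 passed the filter and 4 were higher than in endocrine cells, and without the secretory cells 2 of 7, Muc1 and Pigr, were, beside 27.2% of all genes. The gel-forming mucin genes Muc5ac, Muc5b and Muc6 had no UMI. Of 8 genes of the Reg and Lcn2 list 4 of 6 were higher. Reg1, an acinar secretory protein, was at 4740.3 and 366 CPM over all members and at 4.75 and 20.3 CPM over the 103, and of 2 genes past the filter Lcn2 was then higher and Reg1 lower.

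Against endothelial cells 952 of 9728 genes were at least 2-fold higher in ductal cells in both experiments (9.79%) and 1445 were lower (14.9%). Against stromal cells the numbers were 1128 (11.6%) and 1284 (13.2%) of 9754. The ductal genes outside the rule were higher in 22 of 25 against endothelial cells and in 24 of 25 against stromal cells. Anxa3 (annexin A3) was the exception, at 167 and 131 CPM in ductal and 610.5 and 299.7 in stromal cells. Of the Id genes, which code for inhibitors of bHLH factors, Id3 was at 1269.7 and 1493 CPM in endothelial cells and had 1 and 6 UMIs in ductal cells, all of them in secretory cells. Id2 was at 343 and 447 CPM in ductal cells. The levels of duct markers in endothelial cells rested on few cells. In experiment 1, 143 of 144 endothelial UMIs of Spp1 came from 2 of 57 cells that held 3 or more rule markers, and in experiment 2, 104 of 109 came from 1 of 145. Without them endothelial Spp1 was 5.75 and 16.8 CPM in place of 762 and 347, and endothelial Clu was 207 and 151 CPM.

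The 15 genes with the most UMIs, mitochondrial and ribosomal protein genes aside, were Malat1, Zg16, Defa24, Tff3, Ctrb1, Spp1, Clu, Defa30, Clps, Apoe, Ins2, Prss2, Try4, Fth1 and Dbi. Of these Zg16, Defa24, Tff3, Ctrb1, Defa30, Clps, Prss2 and Try4 owed their place to the secretory cells, and Ins2 was close to its level in other cells that make no hormone. Apoe, the lipid carrier, was at 6586 and 5238 CPM, against 1595 and 2776 in myeloid cells. Apoc1, another apolipoprotein gene, was at 920.1 and 876 CPM and Dbi, the acyl-CoA binding protein, at 4359 and 3742 CPM. The 5 genes lowest against the lowest other class were Iapp, Manf, Ins2, Uqcc2 and Ins1. The ratio of ductal cells to the lowest class, in the experiment where it was higher, ran from 0.983 for Iapp to 1.11 for Ins1. Manf, a protein of the endoplasmic reticulum stress response, was at 121 and 127 CPM against 122 and 134 in endothelial cells.

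The members differed among themselves chiefly in secretory genes. Each member was thinned to 2000 UMIs (60 and 49 members). Genes past a mean limit of 0.2 UMIs were ranked by the lower variance over mean of the 2 experiments. A gene that varied in 1 experiment alone could thus not lead, but the variation within an experiment could come from 1 cell. The first 12 were Try5, Prss2, Malat1, Zg16, Ctrb1, Reg1, Spink1, Spp1, Cela2a, Apoe, Clu and Gm37350. Zg16 reached 26.6 and 424 and Ctrb1 267 and 18.0. In experiment 2 the intermediate cell held, before thinning, 236 UMIs of Try5, 223 of Prss2, 143 of Ctrb1, 91 of Reg1 and 84 of Spink1. No other member of experiment 2 held more than 8 UMIs of any of these genes, so their variation there rested on 1 cell. In the 55 and 42 thinned cells that were not secretory the list was Malat1, Spp1, Apoe, Clu, Apoc1, Mt2, Gm37350, Wfdc18, Mt1, Nupr1, H2-D1 and Xist, and 5 genes were on both lists. Spp1 had a variance over mean of 11.4 and 7.23 there, Apoe of 6.36 and 4.56 and Clu of 4.18 and 4.41. Spp1 ranged from 0.251 to 4.14% of a cell's UMIs in experiment 1 and from 0.143 to 2.44% in experiment 2. The metallothionein genes Mt1 and Mt2, which bind zinc, were at 3339 and 2457 and at 1466 and 771 CPM, both above the level of every other class in both experiments. Gm37350 was at 61.3 and 247 CPM in 14 and 12 members.

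Every member held UMIs of Ins2 and Gcg. The levels of both were close to those of other cells that make no hormone. Ins2 was at 7857 CPM in ductal, 9369 in endothelial, 9491 in stromal and 8524 in myeloid cells of experiment 1, and at 3190.0, 3779.6, 3467 and 3166 in experiment 2. The ratio of Ins2 to Gcg differed between the experiments but not much between the classes: it was 6.37 in ductal cells and 6.05 to 6.66 in the other 3 classes of experiment 1, and 0.861 against 0.887 to 0.936 in experiment 2. Sst and Ppy were at 297 and 61.3 CPM in ductal and at 376 and 111 CPM in endothelial cells of experiment 1, and at 552 and 193 CPM in ductal and at 538 and 236 CPM in endothelial cells of experiment 2. Over all cells of the library the ratio of Ins2 to Gcg was 4.69 and 0.591, and whether these UMIs came from free RNA was not tested.

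**Figure D4:**
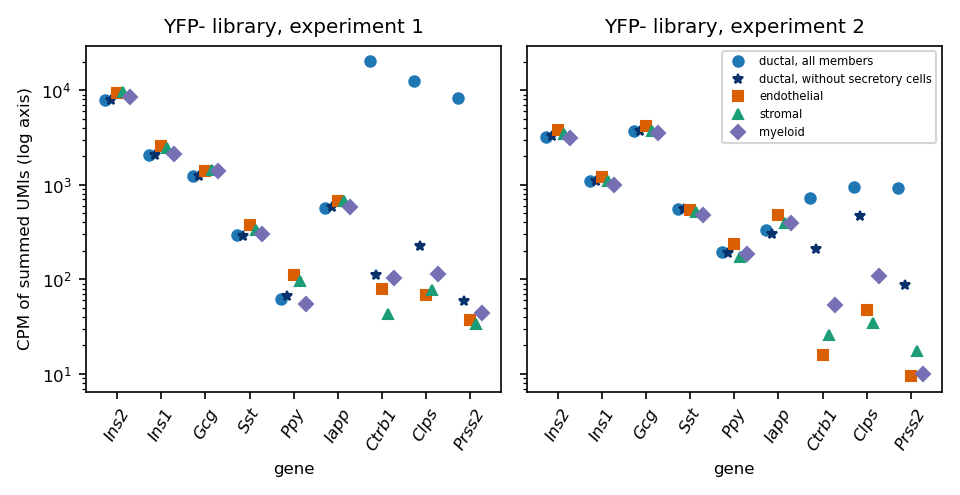
Points give the CPM (log axis) of 6 hormone and 3 acinar genes in the summed UMIs of ductal cells, with and without the 13 secretory cells, and of endothelial, stromal and myeloid cells of the same library. The hormone genes lie within about 2-fold in all classes of a library, with Ins2 from 7857 to 9491 CPM and Ppy from 54.7 to 111 CPM in experiment 1. The acinar genes fall in ductal cells when the secretory cells are left out, but stay highest there among the classes drawn. The gap is smallest for Ctrb1 in experiment 1, at 112 CPM against 104 in myeloid cells.

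Acinar transcripts behaved otherwise. Over all members the 18 acinar genes summed to 87355 and 32768 CPM, and over the 103 cells to 864 and 1596 CPM, against 349 and 213 in endothelial, 281 and 236 in stromal and 484 and 418 in myeloid cells. In experiment 2 Zg16, also a goblet cell gene, made up 28270.4 CPM of the sum over all members. Without Zg16 the sums were 85461 and 4498 CPM over all members and 850 and 1459 CPM over the 103 cells. Clps led the list in the 103 cells at 226 and 473 CPM, and the acinar factors Ptf1a, Rbpjl and Bhlha15 had no UMI there. Delta cells held more than the 103 cells, 4951 and 10138 CPM, and alpha cells did in experiment 1 alone, with 3218 and 375 CPM. Beta cells held less than the 103 cells in both experiments, with 778 and 153 CPM. Against the mean of endocrine cells the list had 5 of 16 genes higher and 0 lower over all members, and 0 of 14 higher and 7 lower over the 103, beside 6.67% of all genes lower. In the 103 cells 31 of 57 and 24 of 46 held 3 or more acinar genes, and 10 and 23 held 3 or more mucosal genes. The mucosal list includes Muc1, which is also a listed ductal gene, and Pigr, which led it in the 103 cells at 311 and 554 CPM. These counts were not made in other classes, and the part of depth in them was not tested. Whether the remaining acinar UMIs came from free RNA was not tested.

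Markers of cell types other than acinar, mucosal and islet endocrine cells were scarce in the members. The rule itself kept out Pecam1, Col3a1 and Ptprc, 1 gene each of the endothelial, stromal and immune lists. The 18 islet endocrine genes summed to 13266 and 11044 CPM in the members. Endothelial genes summed to 26.8 and 65.6 CPM against 19637 and 18586 in endothelial cells, with 8 and 9 of 13 at 0. Stromal genes summed to 381 and 212 CPM, of which Sparc, a matrix protein that many cells make, was 261 and 127, and Col1a1 had no UMI. Immune genes summed to 46.0 and 555 CPM, led by S100a8 in experiment 2. There 15 of 54 members held 3 or more immune genes and in experiment 1 none did, and the sum was of the same order in endothelial (497) and stromal cells (489.9) of experiment 2. Mesothelial genes summed to 28.8 and 34.7 CPM, glial genes to 7.67 and 3.86 and hepatocyte genes to 90.1 and 185, no member held 3 mesothelial or glial genes, and 2 of experiment 2 held 3 hepatocyte genes. Of the 18 islet endocrine genes 17 were lower than in endocrine cells, all but Ppy. This follows in part from how the cells were chosen, since the rule limits 4 of these genes in the members. The alpha, beta and delta cells were themselves chosen by Gcg, Ins2 or Sst above its limit, with Ppy at or under its limit. The transgene had 1 and 2 UMIs of YFP and none of rtTA in the members.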

How the data were processed

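Single cells of the 4 libraries were captured with a 10x Genomics 3′ kit. The authors deposited UMI counts per gene and cell, made with Cell Ranger on mm10, with R 3.6.1 and Seurat in the submitters' processing notes, and the files hold cells with at least 500 genes, at least 1001 UMIs and at most 6.97% mitochondrial UMIs. Intervals cover counting error only. Counts were summed per class and experiment and given as CPM. Alpha, beta and delta cells had 1 hormone above its limit, and endothelial, stromal and myeloid cells had Pecam1, Col3a1 or Ptprc with 2 or more further markers. Members were chosen on their values, and members and gene lists were chosen with earlier results of these data known, so no test was made, and folds are called at 2-fold in both experiments. With 1 library per experiment, replicate spread is that of 2 values. Named were the genes of the rule and of the lists, the 20 leading, 15 most abundant, 5 lowest and 12 most variable genes. Lyz1, and the leading and variable genes without the secretory cells, were added after values were seen.

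Doublets were treated by a nearest-neighbour caller with 25% simulated doublets, which marks the 2% highest cells per experiment by construction. It marked none of the members. Whether the authors' own doublet removal came before deposit is not given in the sources used here. Python 3.11.15, numpy 2.4.6, scipy 1.17.1, scikit-learn 1.9.0 and, for TMM factors, edgeR 4.0.16 were used. Alternatives were other marker numbers, hormone limits, exclusions, scalings, pseudocounts, filters and folds. Leaving out the secretory cells, or endothelial cells with 3 or more rule markers, was chosen after seeing the data. The bulk RNA-seq table, with 8 libraries of this series and 6 columns of no sample given here, was not used here. Some genes of the lists enter the counts but are not reported here by name.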

Additional observations from a re-analysis of the deposited data

Results flagged for a closer look

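The YFP+ libraries, which the comparisons do not use, held cells with duct markers. Leaving aside the hormone limits, 183 of 1300 cells in experiment 1 and 233 of 1498 in experiment 2 had UMIs of 3 or more of the 6 markers and none of the 3 excluded genes. All of them were above the Ppy limit. In the YFP- libraries 14 of 327 and 22 of 355 alpha, 47 of 437 and 6 of 93 beta and 13 of 136 and 9 of 155 delta cells also had 3 or more of the markers. Clu had a UMI in 173 and 226 of these YFP+ cells, Krt7 in 158 and 203, Spp1 in 128 and 178 and Cldn3 in 101 and 114. Sox9 had one in 22 and 32 and Krt19 in 3 and 9. Of these YFP+ cells 2 and 13 had UMIs of 5 or more of the markers. The median depth of these YFP+ cells was 11211 and 12290 UMIs, against 6442 and 4291 in the ductal cells, and the part of depth in their number was not tested. Summed over the YFP+ libraries Spp1 was at 80.2 and 125 CPM and Sox9 at 4.70 and 7.46 CPM.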

How the results depend on the processing

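The number of members stayed within 1.5 times of 62 and 54 under every alternative but the removal of the hormone limits, which gave 158 and 115; they were 54 and 42 with cells thinned to 1000 UMIs. The counts of genes past the fold depended on the settings. Without the hormone limits they were 324 higher and 9 lower against endocrine cells and 748 higher against stromal cells. With hormone genes left out of the totals they were 975 and 1414 against endocrine cells, and with TMM factors 868 and 1126. A pseudocount of 20 gave 885 higher and 291 lower against endocrine, 423 and 786 against endothelial and 490 and 729 against stromal cells. A filter of 50 CPM gave 981 higher and 187 lower against endocrine, 411 and 763 against endothelial and 482 and 647 against stromal cells, and a 4-fold limit 497 higher and 273 lower against endocrine, 312 and 587 against endothelial and 421 and 609 against stromal cells. With 1 experiment left out the counts were 2839 to 3090 higher and 770 to 942 lower against endocrine, 1629 to 1843 and 2324 to 2361 against endothelial and 1900 to 2122 and 1811 to 2049 against stromal cells, where a gene had to pass in 1 experiment only. Of 66 list medians 16 turned sign under some alternative, 12 of them under 1 in size. The 4 of 1 or more were those of the cell cycle list against endocrine cells (-0.014 with hormone genes left out of the totals and -0.17 with no filter) and against stromal cells (-0.26 with no filter), of the acinar list against endocrine cells (-1.29 without secretory cells, -0.31 without experiment 1 and 5.05 without experiment 2) and of the stromal list against endocrine cells (-1.01 with hormone genes left out, -0.69 with the mean of per-cell CPM, -0.18 with no filter, -1.44 without experiment 1 and 4.46 without experiment 2). Leaving out the secretory cells moved 16 of 69 named gene levels by over 1.5 times, leaving out experiment 1 moved 23 and experiment 2 20, the mean of per-cell CPM moved 12, at least 4 markers 10 and at least 2 markers 6. No paired analysis was possible because every result is a description that comes from no test, and each fold was itself taken within a library. Depth limits the low genes: 3 UMIs are 5.75 and 11.6 CPM in ductal cells.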
